A study of Macaca mulatta with 12 samples.

Results

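CD11c+ MBC 1 is a subtype of blood memory B cells that the authors annotated in rhesus macaques (Macaca mulatta), and the comparison here is between its cells that carried a switched heavy chain and its cells that did not. A cell entered when it had exactly 1 productive heavy chain contig with a constant gene: IGHG, IGHA or IGHE made it switched, and IGHM or IGHD made it unswitched. Of 13849 cells in the series, 2236 were CD11c+ MBC 1 and 1831 of those had a known class, 432 switched and 1399 unswitched. The remaining cells of the subtype were 343 without a heavy chain, 45 with 2 heavy chains and 17 whose heavy chain had no constant gene. The cells came from the peripheral blood mononuclear cells of 6 juvenile Indian-origin animals, 2 males and 4 females aged 2 to 3 years, labelled healthy and unmanipulated. No animal carried a treatment, allele or transgene in the labels. From each animal 1 droplet library of 5' RNA and 1 library of B cell receptors were made. Both males were in batch 1 and all 4 females in batch 2, so that sex and batch cannot be told apart. The replicate was the animal, and both classes were compared within each animal.

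B cells leave the bone marrow with IgM and IgD on their surface, made from 1 heavy chain transcript by splicing. Class switch recombination, started by the deaminase AID, replaces the constant region by that of IgG, IgA or IgE and leaves the variable region as it was. The same enzyme drives somatic hypermutation of the variable region in germinal centres. CD11c+ memory B cells, also called atypical or T-bet+ memory B cells, express the integrin CD11c (gene ITGAX) and the transcription factor T-bet (TBX21), have little CD21 (CR2), and hold switched and unswitched cells in the blood.

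ITGAX was at 436.9 to 910 CPM (counts scaled to 1e6 UMIs, n = 6 animals) in CD11c+ MBC 1 and at 3.57 to 13.6 CPM in Naive B cells 1, and CR2 was at 0 to 2.11 CPM against 28.2 to 92.8 CPM. TBX21 was at 16.9 to 55.0 CPM against 0 to 3.73 CPM. Other subtypes overlapped: ITGAX was at 172.7 to 527 CPM in Naive B cells 2, and TBX21 at 12.4 to 35.0 CPM in C-MBC 1. These genes may have served in the authors' clustering, so the values are a description. CD27 was not analysed here.

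Most switched cells used 1 constant gene: 423 of 432 had IGHG1, 3 had IGHG2 and 6 had IGHA. Among the unswitched cells 1018 had IGHM and 381 had IGHD. The sequences below show what the variable regions of both classes looked like. The first set is a stretch of 114 bases from the variable region of IGHV3-103 in female 3, the gene that most switched cells with a reference used in the animal with most such cells. It runs between the bounds that the contig annotation marks as the start of CDR1 and the end of CDR2. These marks are the annotation's own, since the stretch opens with bases of framework 1, the cysteine codon tgt included. The reference is a sequence that unswitched cells of other subtypes shared, and each class is shown by the cell at the median divergence of its class, 24 unswitched and 11 switched cells in all. Capitals mark bases that differ from the reference.
reference, IGHV3-103: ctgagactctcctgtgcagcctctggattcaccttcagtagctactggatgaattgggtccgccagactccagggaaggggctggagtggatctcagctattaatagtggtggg
unswitched cell, IGHD: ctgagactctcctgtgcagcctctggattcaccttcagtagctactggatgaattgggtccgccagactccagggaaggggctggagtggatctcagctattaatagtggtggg
switched cell, IGHG1: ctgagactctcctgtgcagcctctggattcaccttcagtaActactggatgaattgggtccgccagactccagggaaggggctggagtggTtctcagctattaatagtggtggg
The unswitched cell matched the reference over the whole variable region, and the switched cell differed from it at 2 bases in this stretch and at 4 over the whole variable region.

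The second set is the CDR3, the part of the heavy chain that is unique to a clone, of the 2 clones that held a CD11c+ MBC 1 cell and a cell of the other class. Clones were cells of 1 animal with the same IGHV and IGHJ gene, the same CDR3 length and at least 85% of CDR3 bases in common. No clone held both classes within CD11c+ MBC 1. In both clones the partner belonged to a classical memory subtype (C-MBC 1 or C-MBC 2), and capitals mark bases that differ from the first cell of each pair.
female 1, IGHV3-59, CD11c+ MBC 1, IGHG1: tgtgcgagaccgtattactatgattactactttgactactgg
female 1, IGHV3-59, C-MBC 1, IGHM: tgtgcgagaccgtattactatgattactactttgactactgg
female 2, IGHV4-76, CD11c+ MBC 1, IGHD: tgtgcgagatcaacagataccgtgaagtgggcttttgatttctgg
female 2, IGHV4-76, C-MBC 2, IGHA: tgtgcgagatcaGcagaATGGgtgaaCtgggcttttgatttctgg
The pair of female 1 had the same 42 bases, and the pair of female 2 differed at 6 of 45. Another set shows the switched clones that CD11c+ MBC 1 shared with CD11c+ MBC 2, the other CD11c+ subtype.
female 1, IGHV4-173, CD11c+ MBC 2, IGHG1: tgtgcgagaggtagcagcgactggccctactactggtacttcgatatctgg
female 1, IGHV4-173, CD11c+ MBC 1, IGHG1: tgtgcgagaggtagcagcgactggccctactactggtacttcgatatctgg
female 2, IGHV4S15, CD11c+ MBC 2, IGHG1: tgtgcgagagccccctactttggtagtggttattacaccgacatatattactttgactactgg
female 2, IGHV4S15, CD11c+ MBC 1, IGHG1: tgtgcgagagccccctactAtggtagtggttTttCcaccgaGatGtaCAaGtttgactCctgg
The first of these pairs shared all 51 bases, and the second differed at 9 of 63. All 4 cells were IGHG1. The 2 pairs that differed, at 6 of 45 and 9 of 63 bases, were joined by the 85% rule, and their shared descent was not tested.

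Switched cells were the smaller class in 5 of the 6 animals. They made up 18.5% of the cells of known class in male 1 (95% exact binomial interval 14.4 to 23.3), 13.6% in male 2 (10.2 to 17.6), 22.1% in female 1 (17.4 to 27.4), 25.9% in female 2 (20.8 to 31.5), 28.3% in female 3 (24.6 to 32.2) and 68.6% in female 4 (54.1 to 80.9). Female 4 stood apart from the others and gave 51 cells, 35 switched and 16 unswitched. The mean was 29.5% ± 19.9 (SD, n = 6), and 21.7% ± 5.84 (n = 5) without female 4. Among unswitched cells, IGHD made up 25.9% ± 14.3 (SD, n = 6), from 12.5% in female 4 to 48.8% in female 2.

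The variable regions of switched cells carried more differences from shared reference sequences in each of the 5 animals with enough cells. Divergence was the number of differences per 100 bases, from the first framework to the end of the third, between a cell and the nearest reference, a sequence found in 3 or more unswitched cells with different CDR3 from the same animal and gene outside CD11c+ MBC 1. No germline set was used here, so an allele without a reference of its own would count as divergence, and divergence is not mutation alone. It could be computed for 366 switched and 1241 unswitched cells. Mean divergence was 1.77 in switched and 0.82 in unswitched cells of male 1, 1.50 and 0.679 in male 2, 2.80 and 0.914 in female 1, 3.47 and 1.45 in female 2, and 1.59 and 0.588 in female 3. Female 4 had 11 and 5 cells with a reference and was left out. The switched mean was higher in 5 of 5 animals, by 1.33 ± 0.567 (SD, n = 5). The exact two-sided sign-flip permutation test over animals gave p = 0.0625, the smallest value 5 animals allow (adjusted p = 0.15 over the 12 receptor and RNA quality measures tested). A divergence of 0 was found in 32.5% of switched and 61.6% of unswitched cells with a reference.

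Light chain use and the number of receptor transcripts captured also had 1 direction in every animal. The kappa share was lower in switched cells of 6 of 6 animals, with a mean of 40.7% ± 9.85 against 49.7% ± 7.24 in unswitched cells (SD, n = 6), and a difference of -16.9 percentage points in female 4 to -2.96 in male 1. The median number of UMIs (unique molecules) of the heavy chain contig was lower in switched cells of 6 of 6 animals, at 3 to 9 against 7 to 18, with means of 5.75 ± 2.40 and 12.7 ± 5.54 (SD, n = 6). Each gave p = 0.03125 by the exact two-sided sign-flip permutation test, the smallest that 6 animals allow, and an adjusted p of 0.125. None of the 12 measures passed an adjusted p of 0.05, and 3 had an unadjusted p under 0.05. Beside the kappa share and the heavy chain UMIs, that was the median number of genes detected per cell, at 2023 in switched and 2116 in unswitched cells, a difference of -92.4 ± 79.2 (SD, n = 6) and below 0 in 6 of 6 animals. The median UMIs per cell were 5222 ± 1291 and 5567 ± 1320.

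Other features of the heavy chain did not move one way. CDR3 length was 16.2 ± 0.378 residues in switched and 16.1 ± 0.502 in unswitched cells (exact p = 0.8125, n = 6). IGHV3 genes made up 26.0% ± 7.41 against 30.6% ± 4.69, IGHV4 genes 55.4% ± 10.8 against 49.4% ± 4.04, and IGHJ4 59.2% ± 7.28 against 55.0% ± 6.05 of switched and unswitched cells, and no direction held in more than 4 of the 6 animals. Switched cells used 73 IGHV genes and unswitched cells 90. Cells in clones of 2 or more were rare in both classes, 1.76% ± 2.44 against 3.45% ± 2.08 (SD, n = 6). Within CD11c+ MBC 1, 9 clones had 2 or more cells, and the largest had 4.

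**Figure D1:**
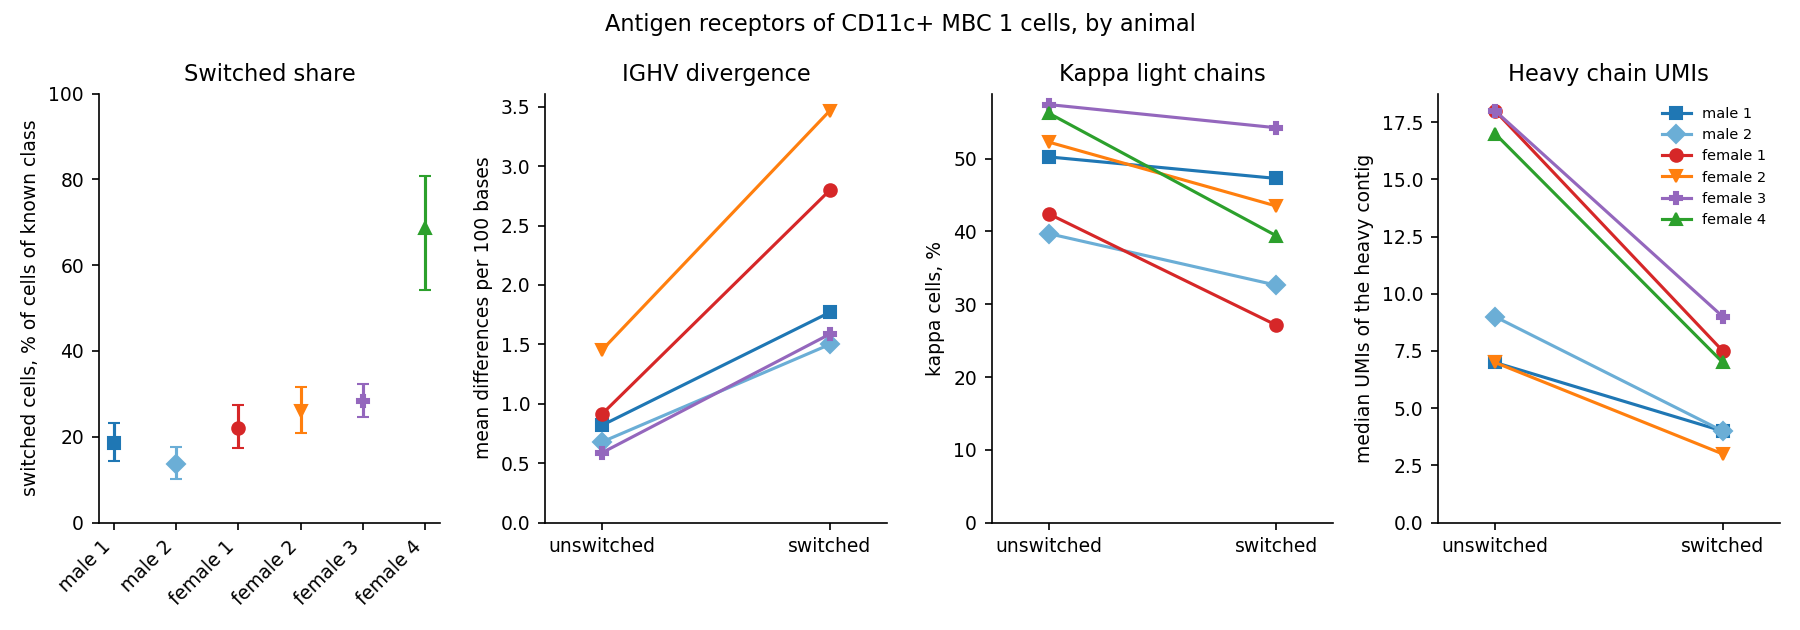
Switched share (percent of cells of known class, bars: exact 95% binomial interval), mean IGHV divergence (differences per 100 bases), kappa share (percent) and median heavy chain UMIs in each animal, with a line joining the classes of 1 animal. Female 4 lies above the other 5 animals in the first panel, and lines rise in 5 of 5 animals for divergence and fall in 6 of 6 for kappa share and heavy chain UMIs.

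RNA counts were summed per animal and class, giving 12 sums of 16 to 401 cells and 100655 to 2707919 UMIs. In the RNA, IGHM was at 429 to 1384 CPM (median 1008) in unswitched and at 50.5 to 336.6 CPM (median 233.8) in switched sums, a log2 difference of -2.14 ± 0.12 (SE), lower in 6 of 6 animals. IGKC, the kappa constant gene, differed by 0.08 ± 0.10 and was higher in 4 of 6 animals, while the kappa share of the receptor libraries was lower in 6 of 6. Immunoglobulin genes and identifiers without a gene name were left out of the main test. In a fit that kept them, 3 unnamed identifiers rose and 9 fell of 257 tested. ENSMMUG00000057110 fell by 5.40 and ENSMMUG00000061441 by 3.46 on the log2 scale, in 6 of 6 animals each.

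The 2 classes differed in few genes. Of 6618 genes tested with edgeR's quasi-likelihood test with the animal as a block, 49 (0.74%) passed an adjusted p of 0.05, 21 (0.317%) higher and 28 (0.423%) lower in switched cells. The median log2 difference over all genes was 0.00. The call kept 1 direction in every animal for 28 of the 49 genes, and 13 had a log2 difference above 1 in size. The number of calls fell to 17 without female 2 and to 28 without female 3, and was 50 without female 4, and 14 genes kept the call without each animal in turn. DESeq2 called 11 genes, all 11 among the 49 with the same direction. With each cell thinned to 2000 UMIs, which sets the depth per cell but not the number of cells per sum, 8 of 3438 genes were called, 6 of them among the 49, EYA2, SPAG16, SOX5 and TYROBP included.

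EYA2 and TOX, both regulators of transcription, were among the genes that rose in switched cells. EYA2, a transcriptional coactivator with phosphatase activity, was at 37.1, 45.1 and 76.8 CPM (lowest, median and highest animal) in unswitched and at 52.6, 169 and 303 CPM in switched cells. Every animal had more EYA2 in its switched cells, although the lowest switched value, in male 2, lay within the unswitched range. The log2 difference was 1.45 ± 0.14 (SE, adjusted p = 8.7e-12). TOX, a DNA-binding factor, was at 19.2, 94.7 and 283 CPM in unswitched and 34.6, 215 and 388 CPM in switched cells, with the ranges overlapping and a difference of 0.63 ± 0.11 (adjusted p = 0.00034) that was above 0 in 6 of 6 animals.

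SPAG16, PLBD1 and NOD2 also rose. SPAG16, which encodes a protein of the axoneme in cilia and sperm, went from 93.2, 288 and 374 CPM to 166, 555 and 698 CPM, a log2 difference of 0.95 ± 0.08 (adjusted p = 6.8e-13). Female 2 was the low animal in both classes, and each animal rose by 0.73 to 1.29 on the log2 scale. PLBD1, a phospholipase B-like protein, went from 47.2, 83.3 and 200 CPM to 50.7, 157 and 395 CPM (0.84 ± 0.12, adjusted p = 5.3e-06). Male 1 moved least, by 0.10, and the other 5 animals by 0.68 to 0.98. NOD2, a cytosolic sensor of bacterial peptidoglycan, rose by 0.90 ± 0.23 (adjusted p = 0.035), from a median of 20.4 to 44.4 CPM. Its call was lost without female 2, female 3 or male 2.

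The next 6 genes were higher in 6 of 6 animals as well. APBA1 and APBB2, adaptor proteins, rose by 1.28 ± 0.31 and 0.72 ± 0.15 (adjusted p = 0.027 and 0.0055). APBA1 was the only one of the 49 genes whose values did not overlap between the classes, at 5.96 to 15.5 CPM against 18.5 to 45.1 CPM. That gap rests on few counts, since APBA1 had 74 UMIs over all unswitched and 52 over all switched cells. The value of 18.5 CPM was that of female 4, whose switched sum held 172251 tested counts. Over all genes tested, 0.0907% had class values that did not overlap. ARHGAP21, a GTPase-activating protein, rose by 0.70 ± 0.18, and ITPKB, an inositol trisphosphate kinase, by 0.38 ± 0.10. CLEC2D, a C-type lectin, rose by 0.36 ± 0.09, and SMAP2, a GTPase-activating protein for Arf proteins, by 0.27 ± 0.07. Each of these calls was lost on leaving out 1 animal. That held for 5 animals for ARHGAP21 (all but female 1), for females 1 and 2 and both males for APBA1, and for females 1, 2 and 3 and male 2 for CLEC2D. ITPKB lost its call without female 2, female 3 or male 1, SMAP2 without female 1, 2 or 3, and APBB2 without female 1 or 2.

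TYROBP, PTPRJ and UBASH3B were lower in switched cells. TYROBP, the ITAM adaptor DAP12, was at 170, 218 and 365 CPM in unswitched and at 42.2, 84.4 and 293 CPM in switched cells. It was lower in 5 of 6 animals and higher in male 2, where it went from 234 to 293 CPM. The log2 difference was -1.35 ± 0.16 (adjusted p = 3.3e-08). PTPRJ, the receptor phosphatase CD148, went from 52.0, 81.9 and 156 CPM to 21.3, 53.1 and 84.4 CPM (-1.01 ± 0.18, adjusted p = 0.00031). UBASH3B, a phosphatase that acts on signalling downstream of antigen receptors, fell by 0.45 ± 0.10 on the log2 scale. It and PTPRJ were lower in 6 of 6 animals, and the UBASH3B call was lost without female 2 or female 3.

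KCNQ5, FUOM and CHN2 fell as well. KCNQ5, a voltage-gated potassium channel, went from 78.3, 118 and 203 CPM to 41.5, 72.5 and 115 CPM (-0.78 ± 0.14, adjusted p = 0.00032). FUOM, fucose mutarotase, went from 54.6, 104 and 212 CPM to 22.6, 40.2 and 71.0 CPM (-1.02 ± 0.18, adjusted p = 0.00037). CHN2, a GTPase-activating protein for Rac, went from 99.3, 186 and 277 CPM to 62.3, 95.8 and 229 CPM (-0.69 ± 0.12, adjusted p = 0.00034). All 3 were lower in every animal, with overlapping ranges. MYO1E, PPM1L and CDK14 fell by 0.61 each, and the MYO1E call was lost without any 1 of the 6 animals, the CDK14 call without any 1 animal other than female 4, and the PPM1L call without female 2 or male 1. IFNGR2, a chain of the interferon gamma receptor, fell by 0.64 ± 0.16 in 6 of 6 animals, and its call was lost without female 1, female 2, female 3 or male 2.

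SOX5, a transcription factor that marks atypical memory B cells in humans, fell too. It went from 504, 849 and 1117 CPM to 353, 616 and 796 CPM, a log2 difference of -0.45 ± 0.07 (adjusted p = 3.9e-05). The change was -0.14 in male 1 and between -0.61 and -0.48 in the other 5 animals. HDAC9, a histone deacetylase, fell by 0.80 ± 0.20, a call that was lost without any 1 of 5 animals. ATRNL1, an attractin-like membrane protein, fell by 1.23 ± 0.28 (adjusted p = 0.010). Its change was -0.28 in male 1, -0.10 in male 2 and -0.32 in female 3. In females 1, 2 and 4 it was -2.32, -2.55 and -4.14, with switched values of 14.1, 2.31 and 6.18 CPM. HHIPL1 fell by 1.08 ± 0.27 and was at 0 to 30.1 CPM in switched cells. The ATRNL1 call was lost without female 1 or female 2, and the HHIPL1 call without female 2 or male 2.

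**Figure D2:**
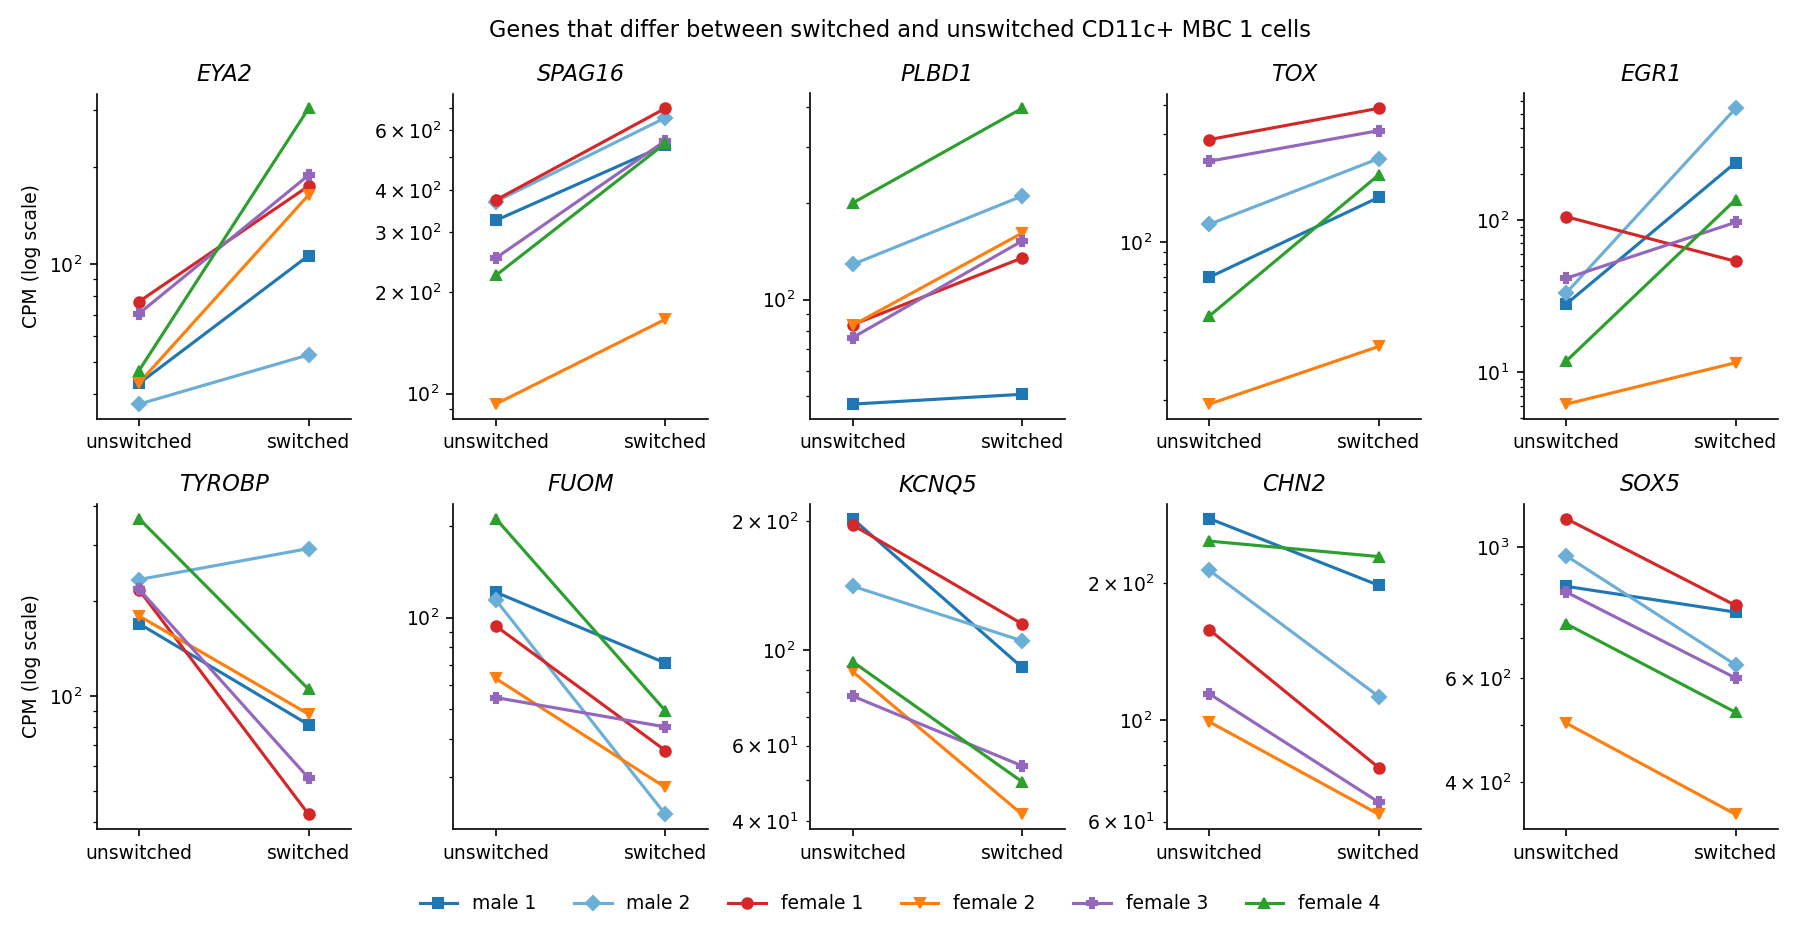
CPM (log axis) of 10 genes in unswitched and switched CD11c+ MBC 1 cells, 1 line per animal. EYA2, SPAG16, PLBD1 and TOX rise and FUOM, KCNQ5, CHN2 and SOX5 fall in 6 of 6 animals, while EGR1 falls in female 1 and TYROBP rises in male 2.

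Gene lists for B cell functions placed these genes. The lists held their members whatever their direction, and the counts are set beside 0.317% higher and 0.423% lower over all genes. In the atypical list, 14 of 20 genes were measured, of which TOX rose and SOX5 fell, with a median log2 difference of 0.05. ITGAX differed by 0.04 ± 0.07, FCRL5 by 0.05 ± 0.10 and TBX21 by 0.43 ± 0.20 (adjusted p = 0.97, 0.97 and 0.58), so none of these genes of the subtype was called. The B cell genes MS4A1 (CD20) and CD79A were at -0.05 ± 0.06 and 0.00 ± 0.05. FGR, a SRC family kinase, and NR4A2, a nuclear receptor, were at -0.24 ± 0.11 and 0.18 ± 0.06 and not called. In the memory list, CRIP1, a LIM domain protein, rose by 0.26 ± 0.07 in 5 of 6 animals and 1 of 17 measured genes was called. The CRIP1 call was lost without female 1, 2 or 3 or male 1. S100A10, an annexin partner, and GPR183, the oxysterol receptor that positions B cells in lymphoid tissue, were each at 0.21 (± 0.06 and 0.07, adjusted p = 0.11 and 0.17). The naive list had no call among 11 measured genes, with SATB1 at -0.50 ± 0.14 (adjusted p = 0.069). FOXP1, a transcription factor that is high in naive cells, was at -0.32 ± 0.10 and below 0 in 6 of 6 animals, and was not called (adjusted p = 0.16).

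Class switching and germinal centre genes had no call among 10 measured, with a median of 0.08 and APEX1 at 0.25 ± 0.16. The list of BCR signalling had none among 18, with BLNK, the adaptor that links SYK to its targets, at -0.56 ± 0.19 (adjusted p = 0.25). Plasma and secretory genes (8 measured), inhibitory co-receptors (9), marginal zone and complement receptors (6), MHC class II and presentation (9), TNF family receptors and NF-kB (14), cell cycle (5), ribosomal proteins (16) and oxidative phosphorylation (20) had none either. At an unadjusted p under 0.05 these 8 lists had 2, 1, 2, 2, 4, 0, 0 and 0 genes, against 7.52% of all genes tested. The naive list had 5 of 11, memory 4 of 17, atypical 5 of 14 and homing and adhesion 4 of 14. Interferon response had 8 of 11, immediate early and stress 8 of 15, and the Toll-like receptor and innate list 3 of 12. Class switching had 0 of 10 and BCR signalling 1 of 18. The lists were chosen with earlier results of these data known, so these counts are a description. The TNF family and NF-kB list lay below 0 in 12 of 14 measured genes, against 3279 of 6618 over all genes tested, with a median of -0.21. CD9, a tetraspanin, and DTX1, a NOTCH target, both in the marginal zone list, were at -0.58 ± 0.16 and 0.55 ± 0.15 (adjusted p = 0.077 and 0.053). CD74, the invariant chain of MHC class II, was at 0.15 ± 0.04 and above 0 in 6 of 6 animals (adjusted p = 0.069). The plasma cell factor IRF4 was at -0.32 ± 0.13, the inhibitory co-receptor CD72 at -0.51 ± 0.21, and NFKBIA, an inhibitor of NF-kB, at -0.29 ± 0.09. In the list of homing and adhesion, CCR6, the receptor for the chemokine CCL20, fell by 0.61 ± 0.15 (adjusted p = 0.023) in 5 of 6 animals, and no other of the 14 measured genes was called. The CCR6 call was lost without female 1, 2 or 3. Of the Toll-like receptor and innate list, NOD2 rose and MYD88, the adaptor of Toll-like receptors, was at 0.61 ± 0.18 (adjusted p = 0.11).

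Interferon response genes lay below 0 in 10 of 11 measured, against 3279 of 6618 over all genes tested. Their median was -0.40, against 0.00 over all genes. ISG15, an antiviral ubiquitin-like modifier, was the one called, at 12.7, 46.1 and 397 CPM in unswitched and 11.2, 23.1 and 228 CPM in switched cells (-0.71 ± 0.16, adjusted p = 0.016). It was lower in 6 of 6 animals. IFI6 and MX1 had values of -0.52 ± 0.15 and -0.66 ± 0.19 and were not called. The IFI6 change was -3.00 in female 4 and -0.48 to 0.26 in the others, and in the 5 animals other than female 4, fitted together with CD11c+ MBC 2, it was -0.29 ± 0.12. The unswitched sum of female 4 was at 612.1 CPM of IFI6 in 86172 tested counts, and 1 of its 16 cells held 46 IFI6 UMIs. Female 2 carried most of the signal, with 3826 summed CPM over the list in unswitched and 3008 in switched cells, against 233.0 to 953.8 in the other sums, and the ISG15 call was lost without it.

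Immediate early genes, which are transcribed within a short time of stimulation, lay above 0 in 14 of 15 measured, with a median of 0.13, and 3 rose. Over all genes tested, 3339 of 6618 lay above 0. Summed over the list, switched cells were lower in female 1 (14040 against 14540 CPM) and female 3 (16470 against 16700 CPM), and higher in the other animals. EGR1, a zinc finger factor, went from 6.16, 30.4 and 105 CPM to 11.5, 116 and 541 CPM (1.67 ± 0.27, adjusted p = 6.9e-05). It was higher in 5 of 6 animals, with a mean change of 3.46 in the males and 1.05 in the females, and lower in female 1. In the switched cells of male 1, 32 of 47 EGR1 UMIs were in 1 cell, and in those of male 2, 25 of 72. In the females alone the EGR1 difference was 0.55 (edgeR adjusted p = 0.68). In the males alone it was 3.63, in a fit of 2 animals that says little about the spread between animals. A difference between the sexes was not tested, and sex and batch cannot be told apart. DUSP2, a phosphatase of MAP kinases, rose by 0.53 ± 0.11 (adjusted p = 0.0037) and FOS by 0.32 ± 0.07 (adjusted p = 0.012), each in 5 of 6 animals. The DUSP2 call was lost without female 2 or female 3. FOS was at 72.4 and 115 CPM in the unswitched and switched cells of female 2 and at 1074 CPM or more in all other sums, and its call was lost without female 2, male 1 or male 2. 

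The list of genes known from earlier results to lead the class comparison over all B cells or all memory cells was chosen on these same cells and is not independent evidence. Of its 17 genes 6 were measured, EYA2 rose, and TYROBP and TTN, the giant muscle protein gene, fell. TTN was at 11.8, 60.7 and 139 CPM against 0, 36.3 and 50.6 CPM (-1.32 ± 0.21, adjusted p = 6.9e-05) and lower in 5 of 6 animals.

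**Figure D3:**
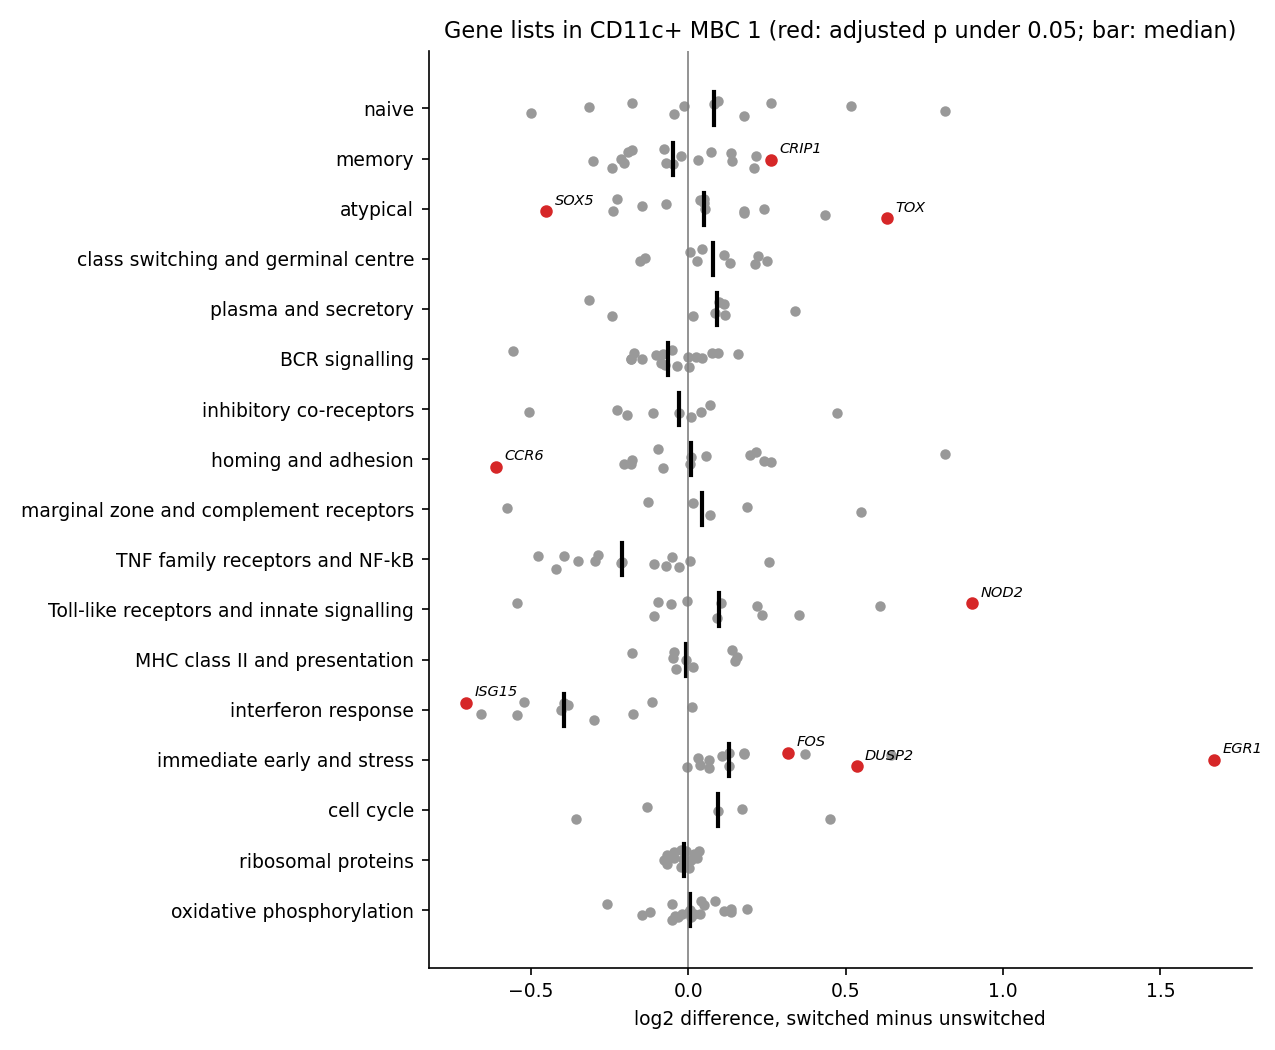
Log2 difference (switched minus unswitched) of each measured gene in 17 lists, with the median as a bar and genes at an adjusted p under 0.05 in red and named. Genes of the interferon response list lie to the left, at a median of -0.40, and those of the immediate early list mostly to the right, at 0.13.

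Markers of other blood cells were low in both classes, and a few moved. Summed over 9 monocyte markers, levels were 201.5 to 506.7 CPM in unswitched and 106.6 to 299.4 CPM in switched sums, most of it TYROBP and LYZ. The defining genes CD14, S100A8, S100A9 and FCN1 had 10, 2, 5 and 1 UMIs over all unswitched and 5, 1, 0 and 0 over all switched cells. CST3, an inhibitor of cysteine proteases in the same list, was called higher (1.32 ± 0.28, adjusted p = 0.0055), although it was higher in only 3 of 6 animals. In the switched cells of 2 of those 3, 1 cell held 13 of 19 CST3 UMIs (male 1) and 15 of 53 (female 3). GZMB, a protease of cytotoxic and plasmacytoid dendritic cells, was called lower (-2.33 ± 0.45, adjusted p = 0.0014). Of 87 GZMB UMIs in the unswitched cells of female 4, 78 were in 1 cell, and without female 4 the log2 difference was -0.70 and not called. The 8 NK cell markers summed to 14.8 to 1470 CPM in unswitched and 7.58 to 180.5 CPM in switched sums, and the highest value was that of female 4. The 13 T cell markers summed to 87.7 to 208.6 and 29.9 to 363.5 CPM, with no call. Platelet and red cell markers summed to 14.3 to 146.7 and 43.7 to 226.3 CPM, with no call. Of the dendritic cell markers, CLEC9A and CLEC10A were at 0 UMIs in both classes. The part of these cells in the other results was not tested.

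The class difference was then set beside that in 2 other memory subtypes, CD11c+ MBC 2 and M-MBC 1, the IgM memory cells. The same animals gave both subtypes. Both fits used 5 animals, since female 4 had fewer than 10 cells of 1 class. CD11c+ MBC 1 against CD11c+ MBC 2 gave 2 genes of 7424 (0.0269%) whose class difference differed. TYROBP differed by -1.31 ± 0.19 in CD11c+ MBC 1 and by -2.84 ± 0.21 in CD11c+ MBC 2 (interaction adjusted p = 0.022), and UBASH3B by -0.45 ± 0.12 and -1.54 ± 0.15 (adjusted p = 0.0035). Both fell in both subtypes, and less in CD11c+ MBC 1. No gene was called by DESeq2 or without female 3. At an unadjusted p under 0.05, edgeR gave 378 genes and DESeq2 154.

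The remaining genes had differences that the interaction test did not separate. EYA2 was at 1.40 ± 0.15 and 0.85 ± 0.10, SPAG16 at 0.93 ± 0.10 and 1.22 ± 0.09, SOX5 at -0.45 ± 0.07 and -0.50 ± 0.06, and KCNQ5 at -0.78 ± 0.14 and -0.80 ± 0.13 (adjusted p of the interaction 0.90, 0.96, 1.00 and 1.00). NOD2 was at 0.90 ± 0.22 and 0.39 ± 0.18, APBA1 at 1.29 ± 0.29 and 0.06 ± 0.23, and ISG15 at -0.67 ± 0.17 and -0.12 ± 0.18, and these were not separated either (0.98, 0.72 and 0.96). Of the 49 genes, 46 had the same sign in CD11c+ MBC 2, against 56.7% of all genes in both tests, and 23 were called there in the same direction, against 1.63% of all genes called there. At an unadjusted p under 0.05, 16 of the 49 had an interaction, against 5.09% of all genes. The values that chose the 49 genes enter that interaction, so the count is a description.

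Against M-MBC 1, 4 genes of 8187 (0.0489%) differed in their class difference, and none of them was among the 49 genes. The switched sums of M-MBC 1 were small, at 10 cells in female 2 to 41 in female 1. TESC, a calcium-binding protein, was at 0.25 ± 0.11 in CD11c+ MBC 1 and 1.50 ± 0.26 in M-MBC 1. PLXNC1, a semaphorin receptor, was at -0.43 ± 0.13 and 0.70 ± 0.23, and PLEKHF2, an endosomal protein, at 0.36 ± 0.13 and -0.81 ± 0.23 (interaction adjusted p = 0.022, 0.031 and 0.022). In switched M-MBC 1 cells PLXNC1 was at 81.4 ± 106.8 CPM (SD, n = 5), a wide spread between animals. HBA, a red cell globin whose copies are nearly alike so that its count is uncertain, was at 0.61 ± 0.29 and -2.45 ± 0.31. Its animals were far apart in unswitched M-MBC 1 cells, at 236.5 ± 461.4 CPM against 29.8 ± 21.6 in switched ones (SD, n = 5). DESeq2 called no gene, with 198 at an unadjusted p under 0.05. EYA2 was at 2.33 ± 0.44 and SPAG16 at 1.55 ± 0.16 in M-MBC 1, with interaction adjusted p of 0.98 and 0.23, and 43 of the 49 genes had the same sign, against 54.6% of all genes. In M-MBC 1, 11 of the 49 were called in the same direction, against 0.501% of all genes called there. The interaction had an unadjusted p under 0.05 for 11 of the 49, against 4.9% of all genes, again a description.

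**Figure D4:**
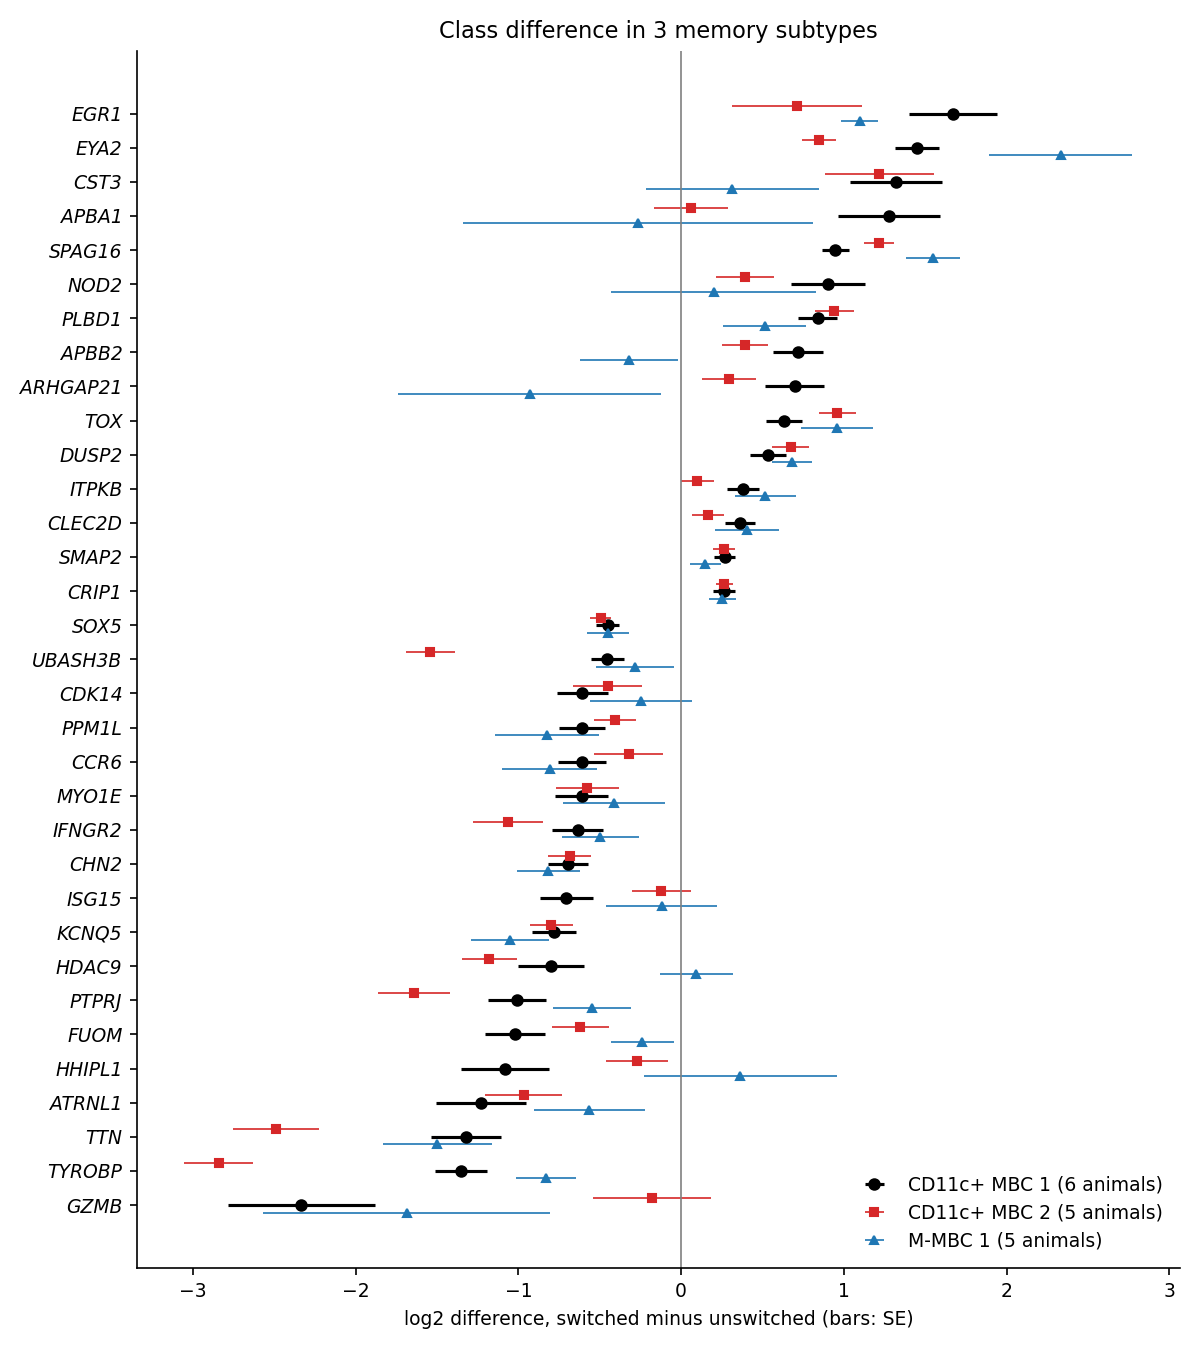
Log2 difference between switched and unswitched cells (points, bars: SE) of the called genes named by the rule, in CD11c+ MBC 1 (6 animals), CD11c+ MBC 2 and M-MBC 1 (5 animals each). TYROBP and UBASH3B lie farther to the left in CD11c+ MBC 2, where their log2 differences are -2.84 and -1.54.

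A comparison limited to cells with a divergence of at least 1 per 100 bases in both classes, called mutated here although divergence is not mutation alone, left 5 animals with 25 to 71 cells per sum. In it 35 of 4351 genes (0.804%) were called, 17 of them also called among all cells in the same direction. EYA2 was at 1.41 ± 0.19, TOX at 1.09 ± 0.20 and PLBD1 at 0.86 ± 0.18, and TYROBP fell by 2.77 ± 0.23, PTPRJ by 1.91 ± 0.29 and SOX5 by 0.62 ± 0.10 on the log2 scale. SPAG16 was at 0.54 ± 0.11 among mutated cells against 0.95 ± 0.08 among all cells.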

How the data were processed

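Blood mononuclear cells of 6 macaques were run on the 10x 5' v2 kit, with an RNA and a receptor library each, per the labels' protocols. Per the submitters' processing notes, Seurat 5.0.1, Cell Ranger 9.0.1 and R 4.3.1 were used, in unstated roles. A genome build was not given in the sources used here. Raw counts (UMIs), as the authors deposited them, cover 22584 genes in 13849 annotated cells, all called singlets. Contig counts and the percent of UMIs in mitochondrial and ribosomal genes were deposited too. Library totals were 3642517 to 20023015 UMIs. Across libraries 193 cells shared a barcode, 17 of them among the cells compared.

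Counts were summed per animal and class where 10 or more cells were present. Unnamed identifiers (14.9% of UMIs) and 23 immunoglobulin genes (0.186%) were left out. edgeR 4.0.16 (filterByExpr, TMM scaling, quasi-likelihood test, animal as block) was run over all genes with Benjamini-Hochberg adjustment, and a gene with an adjusted p under 0.05 is called. DESeq2 1.42.0 and the other settings in the closing section were alternatives. The classes are paired because both come from 1 animal; the deviations of the sums of an animal from the class means correlated at 0.141 to 0.712. Receptor measures were means or medians per animal and class, with exact sign-flip permutation tests over animals (scipy 1.17.1). Intervals of shares cover counting error only. On simulated counts for this comparison of 6618 genes, 95% of changes of 1 and 99% of changes of 2 (log2) were recovered, with 8 unchanged genes called. The simulated counts had 1 dispersion for all genes and the same class difference in every animal, unlike the data. The recovered shares are therefore not the power of the test on the data.

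Named genes were up to 12 called genes per direction, ranked by size, that averaged at least 4 on the log2 CPM scale and moved 1 way in every animal, the 2 to 4 members of each list with the smallest p, the label genes, and called differences of class effects. Some genes that this rule names are not reported here. FOS, MX1, WEE1 and the genes named for mutated cells were chosen after their values were seen. Members and lists were chosen with earlier results of these data known.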

Additional observations from a re-analysis of the deposited data

Results flagged for a closer look

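The switched share of female 4, 68.6%, lay far from the 13.6 to 28.3% of the other 5 animals, in 51 cells. An animal lay apart in 15 of 95 groups of values examined. Chance flags about 1 in 20 groups only where the values spread alike and the groups are separate. These groups came from the same animals, and the sums differed in their number of cells, so an excess over chance was not tested. Female 4, with 16 unswitched cells, was the animal apart in 10 of the 15 groups. Its log2 differences were 3.92 for ARHGAP21 (0.23 to 1.34 in the others), -3.32 for HHIPL1 (-1.31 to -0.56), -0.29 for S100A10 (0.18 to 0.42), -0.90 for BATF (-0.26 to 0.09), 2.02 for MSH6 (-0.23 to 0.34), 0.96 for IRF4 (-0.60 to -0.11), 0.73 for PRKCB (-0.43 to -0.03), 3.01 for CD72 (-1.04 to 0.05) and -3.00 for IFI6 (-0.48 to 0.26). For IFI6, 1 unswitched cell of female 4 held 46 UMIs. Male 1 stood apart for PLBD1, at 0.10 (0.68 to 0.98), and SOX5, at -0.14 (-0.61 to -0.48). Male 2 stood apart for TP53BP1, at -1.67 (-0.19 to 0.47), DTX1, at -0.20 (0.43 to 0.64), and CD2, at -2.70 (-0.85 to -0.03).

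By a test of the interaction, the class difference of UBASH3B was 1.09 and that of TYROBP 1.54 higher on the log2 scale in CD11c+ MBC 1 than in CD11c+ MBC 2. Compared with M-MBC 1, it was 1.17 higher for PLEKHF2 and 3.06 higher for HBA, with a value of -1.13 for PLXNC1 and -1.25 for TESC.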

How the results depend on the processing

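The 49 calls became 11 with DESeq2 and 0 with no replicate block (71 genes at an unadjusted p under 0.05). There were 15 with heavy contigs of 5 or more UMIs and 8 with cells thinned to 2000 UMIs. Leaving out each animal in turn gave 17 to 50, with the low value without female 2. The females alone gave 23, 11 higher and 12 lower, of which 22 were among the 49 in the same direction. The males alone gave 23, 19 higher and 4 lower, of which 8 were among the 49 in the same direction. Without TMM scaling there were 51, of which 18 higher and 33 lower, against 21 and 28. The count was 72 of 13512 genes with no filter on low counts. The other settings (unnamed identifiers and immunoglobulin genes kept, 20 or more cells, IgG against IgM only, 1 cell per clone, mutated cells only) gave 35 to 50, of which 17 to 45 were among the 49, with 17 in mutated cells only and 23 with unnamed identifiers and immunoglobulin genes kept. Of the 49 genes, 48 kept their sign in every setting that tested them, and WEE1 reversed, at -0.05, in the males alone. EYA2 lost its call in 2 and SPAG16 in 1 of 19 settings.

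The 2 genes with a class difference unlike that in CD11c+ MBC 2 became 0 with DESeq2, 0 with no replicate block, and 0 to 2 without each animal. The 4 against M-MBC 1 became 0 with DESeq2, 0 with no replicate block (107 genes at an unadjusted p under 0.05), 1 with no filter and 2 to 4 without each animal. CDR3 length reversed to -0.00165 residues in the females and had -0.106 to 0.259 without each animal. The mitochondrial percent reversed to 0.0871 in the females and had -0.104 to 0.0278 without each animal, and the ribosomal percent reversed to 0.0439 in the females. Divergence with a reference support of 2 cells kept 6 animals, with a difference of 1.37 (exact p = 0.03125). The cause of these changes was not tested. The switched share was 21.7% to 32.7% without each animal, a setting chosen after the data were seen. Depth limits female 4 most, with 100655 UMIs in 16 unswitched cells.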

Other observations

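Among mutated cells alone, 18 genes were called that were not called among all cells, 12 lower and 6 higher in switched cells. LGALS3 (galectin-3), S100A6 and S100A11 fell by 1.12, 0.81 and 0.59 on the log2 scale, COTL1, an actin-binding protein, by 0.53 and PSAP, a lysosomal protein, by 0.55 (edgeR adjusted p = 0.035, 0.00019, 0.039, 0.028 and 0.017). PRKCH, a protein kinase C, and PLPP5, a lipid phosphatase, rose by 1.01 and 1.30 (adjusted p = 0.0017 and 0.0034). Among all cells these 7 genes had values of -0.30, -0.18, -0.07, -0.24, -0.30, 0.36 and 0.52.

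Of the 45 cells with 2 heavy chains, 35 had 2 unswitched chains, 8 had 1 of each class and 2 had 2 switched chains. Mean divergence was lower in IGHD than in IGHM cells in each of the 5 animals with enough cells, at 0.409 against 1.05 in male 1, 0.489 against 0.714 in male 2, 0.721 against 0.954 in female 1, 1.05 against 1.85 in female 2 and 0.481 against 0.626 in female 3.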
